A study of Drosophila melanogaster with 3 samples.

Results

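The cuticle protein genes comprised 118 of the 13968 protein-coding genes of the fly annotation, chosen by symbol alone. They were 70 Cpr genes, 25 Twdl (Tweedle) genes, 15 Lcp (larval cuticle protein) genes, 7 Ccp84 genes and Pcp (pupal cuticle protein). The symbol rule uses no binding value, although the set was taken up with earlier results of these data known. On the chromosome arms, 45 members lay on 3L, 31 on 3R, 27 on 2R, 8 on X and 7 on 2L. They were short genes, with spans from 413 bp for Lcp65Ab1 to 18590 bp for Cpr73D and a median of 970 bp, and 99 of them spanned under 2 kb. Members less than 20 kb apart were grouped, which gave 17 clusters of 2 or more genes holding 89 members, and 29 lone genes.

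The study measured where the transcription factor net sits on chromatin in whole prepupae, the stage at which the larva has become immobile and the pupal body is forming. Every library came from one transgenic line of *Drosophila melanogaster* that stably expressed net with green fluorescent protein (GFP) at its C-terminal end, with males and females pooled and the age given as unknown. Sonicated chromatin was precipitated with an antibody against GFP and sequenced (ChIP-seq). The 3 libraries, numbered 1, 3 and 4, are biological replicates of 1 group, and no control library was analysed here. A peak is therefore a place of enrichment in the precipitate of the tagged protein, and signal that any GFP precipitation would give was not separated from it. The animals were whole, so a peak present in few cells can be missed, and the cells in which a peak arises are unknown. The depth of the libraries is also unknown, since peak lists hold no read counts.

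Insect cuticle is built of chitin fibres held in a matrix of structural proteins, which epidermal cells secrete anew at each moult. Most proteins of the Cpr, Lcp, Ccp84 and Pcp type carry the Rebers-Riddiford consensus, a domain that binds chitin, whereas Tweedle proteins form a separate family of cuticle proteins. Their genes lie in tandem arrays, and many are switched on in short pulses that follow the moulting hormone ecdysone. net belongs to the basic helix-loop-helix (bHLH) proteins, which bind E-boxes (CANNTG), and is known for limiting wing vein formation. Translating the longest coding sequence of each gene from the genome, a loose form of the Rebers-Riddiford core was found in 81 of the 93 members outside the Tweedle family, among them all 15 Lcp and all 7 Ccp84 proteins and 58 of 70 Cpr proteins. It was found in 0 of the 25 Tweedle proteins and in 20 of the 13850 other coding genes, which included resilin, Crys, Edg78E and Edg84A, known for cuticle roles, but also enzymes such as kdn. This form was kept out of 5 tried because it matched most members, so the count describes the label and is no test. The first form tried, a stricter one, matched 32 of the 93, and the other forms matched 1, 1 and 11.

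Cuticle protein genes carried few strong net peaks. A summit of the list thresholded by the irreproducible discovery rate (IDR), a procedure that compares the order of peaks between replicates, lay within the gene or 2 kb of it at 13 of 118 members (11%), against 34.4% of protein-coding genes. The share inside the gene was 2.54% (3 members) against 15% of protein-coding genes. At their own transcription start sites (TSSs), taken as 500 bp to each side, 0 of 118 members had an IDR summit, against 18.2% of protein-coding genes. The chemosensory receptor genes, another family partly in tandem arrays, were at 0 of 179 by the same rule. The closest IDR summit to any member TSS lay 525 bp away, at Cpr72Eb. The longer relaxed list of 30000 peaks called on the pooled libraries, which runs down into background, reached 55 members (46.6%) against 54.4% of protein-coding genes. Around the TSSs it reached 19 members (16.1%) against 33.6%.

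**Figure D1:**
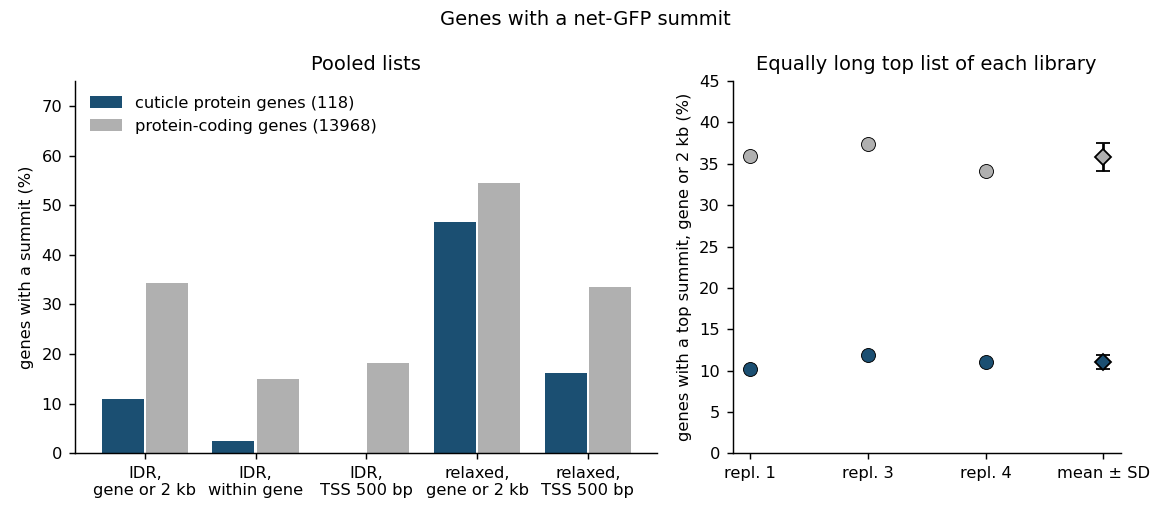
Left, bars give the percent of cuticle protein genes (dark) and of protein-coding genes (grey) with a net-GFP summit under 5 calling rules; right, points give the same percent for the strongest peaks of each library, with the mean and SD of 3 libraries as diamonds. Cuticle protein genes were below protein-coding genes under every rule, at 11% against 34.4% for the IDR list, and by 23.1 to 25.8 percentage points in the libraries.

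The low share was present in each library taken by itself. Among as many of the strongest peaks as the IDR list holds, 7571, replicate 1 had a summit at 12 members (10.2%) against 36% of protein-coding genes. Replicate 3 reached 14 members (11.9%) against 37.4%. Replicate 4 reached 13 members (11%) against 34.1%. The shares of members and of protein-coding genes did not overlap, with means of 11% ± 0.847 (SD, n = 3) and 35.8% ± 1.67 (SD, n = 3). The difference of 24.8 ± 1.51 percentage points (SD, n = 3) was larger than the spread between libraries, although an exact sign-flip test over 3 libraries cannot give a two-sided p under 0.25. In these lists 9 members were called in all 3 libraries, and all 9 were called in the IDR list, namely Cpr31A, Cpr49Ac, Cpr49Ah, Cpr62Ba, Cpr72Ea, Cpr72Eb, Cpr72Ec, Cpr73D and Pcp. Another 5 members were called in 2 libraries and 2 members in 1 library. No summit of the pooled relaxed list or of any library's whole list lay at 52 members, which included 19 of the Tweedle genes and Lcp1 to Lcp4.

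Gene length moved with these counts, and a window around a short gene covers less sequence. Among members spanning under 1 kb, 4 of 61 (6.56%) were called, against 17.4% of protein-coding genes of that span. Between 1 and 2 kb the count was 5 of 38 (13.2%) against 25.8%, and at 2 kb and over 4 of 19 (21.1%) against 45%. Members were below the other genes in each class. Coding genes that are not members but lie within 20 kb of one were called in 135 of 383 cases (35.2%), close to the share of all protein-coding genes. Per length, the genes and their 2 kb flanks held 15 IDR summits in 508 kb, or 2.95 per 100 kb, against 5.71 on the 5 long arms. For relaxed summits the densities were 20.1 and 22.6 per 100 kb. Of the 102 distinct relaxed peaks at members, 15 (14.7%) were in the IDR list, against 27.2% of the relaxed peaks at protein-coding genes and 25.2% of the whole relaxed list.

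The 13 called members shared 15 distinct IDR peaks, 0.198% of the list, and 1 of these peaks was counted for 3 members. Among the 15, 2 pairs of overlapping peaks, at Cpr49Ah and at Cpr73D, had summits within 250 bp of each other. Whether either pair is a single site was not tested. Signal, the authors' own value for each peak, was used only to rank peaks within one list. It ran from 134 to 1062 at the member peaks with a median of 174, against a median of 225 over all IDR peaks. Of the 15 peaks 5 were above that median, and the middle one held rank 5398. By position 9 summits were intergenic, 5 were in introns and 1 was in a 5′ UTR. The nearest TSS belonged to a member for 10 peaks and to another gene for 5. Only 5 of the 15 peaks had no coding gene outside the rule within 2 kb.

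The strongest peak counted for a member lay 1502 bp downstream of Cpr31A, a gene for a cuticle protein of the chitin-binding family, but inside an intron of Pen, which encodes an importin and whose TSS was 537 bp away. Its signal was 1062 at rank 184 in the IDR list. In the libraries its signal was 305 in replicate 1, 406 in replicate 3 and 353 in replicate 4, and its rank was 188, 182 and 193, so the 3 libraries placed it almost alike. The second strongest, with signal 530 at rank 913, stood in the Cpr72E cluster, 525 bp upstream of Cpr72Eb, 624 bp downstream of Cpr72Ea and 1520 bp downstream of Cpr72Ec, with no other coding gene within 2 kb. Its library signals were 190, 185 and 146 in replicates 1, 3 and 4, at ranks 646, 1058 and 1382. A further peak, with signal 308, lay 1189 bp upstream of Cpr72Ea and within 2 kb of another coding gene, ringer. It held ranks 2138, 2366 and 3302 in replicates 1, 3 and 4. With these, all 3 genes of the cluster were called from 2 peaks. The windows of 151 bases centred on the summits of the strongest peaks with a member as nearest gene, of the peak at Cpr31A and of a peak inside Cpr73D are printed because the peaks of highest rank and the E-boxes near the summits can be read from them. They are plus-strand sequence of the RefSeq Release 6 genome, which is build dm6, with each E-box in capitals.

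Downstream of Cpr31A, chr2L:10057362-10057512: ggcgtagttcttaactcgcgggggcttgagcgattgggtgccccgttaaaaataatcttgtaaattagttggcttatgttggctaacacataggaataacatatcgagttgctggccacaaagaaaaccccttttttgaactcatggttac
Between Cpr72Ea and Cpr72Eb, chr3L:16364299-16364449: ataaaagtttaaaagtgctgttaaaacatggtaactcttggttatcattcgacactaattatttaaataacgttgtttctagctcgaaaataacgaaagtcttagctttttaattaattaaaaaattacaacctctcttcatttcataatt
Upstream of Cpr72Ea, chr3L:16361339-16361489: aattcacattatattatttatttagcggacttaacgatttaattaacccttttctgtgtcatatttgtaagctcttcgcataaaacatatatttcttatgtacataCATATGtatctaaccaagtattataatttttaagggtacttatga
Intron of Cpr62Ba, chr3L:1829683-1829833: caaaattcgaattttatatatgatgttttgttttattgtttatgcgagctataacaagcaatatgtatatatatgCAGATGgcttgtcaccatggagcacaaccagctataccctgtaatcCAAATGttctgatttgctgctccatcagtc
Intron of Cpr73D, chr3L:16941429-16941579: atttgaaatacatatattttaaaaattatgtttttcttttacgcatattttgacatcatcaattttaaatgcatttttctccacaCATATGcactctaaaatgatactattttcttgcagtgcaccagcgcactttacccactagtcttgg

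The first and second of these windows, which belong to the strongest member peaks, hold no E-box. The intron window of Cpr62Ba holds CAGATG, which starts at the summit base, and CAAATG, which starts 46 bp to the right. The window upstream of Cpr72Ea and that in Cpr73D each hold 1 CATATG, which starts 31 bp and 10 bp to the right of the summit. A CANNTG within 50 bp of the summit was present at 7 of the 15 member peaks (46.7%, exact 95% interval 21.3 to 73.4%), against 36.7% of all 7571 IDR peaks. The share in the whole list lies inside that interval, so no difference was detectable with 15 peaks. Within 25 bp the shares were 33.3% and 19.7%, and within 100 bp 53.3% and 61.1%, so the order of the pair turned with the window. The interval treats peaks as independent and covers counting error only. The windows were poor in G and C, with a median of 29.7% against 34.7% in the whole list.

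Pcp encodes a pupal cuticle protein and lies within an intron of Gart, a gene of purine synthesis. Its peak lay 1627 bp downstream of Pcp and 199 bp upstream of the nearest Gart TSS, with signal 367 at rank 1748. The library signals were 91.6, 146 and 125 in replicates 1, 3 and 4, at ranks 2553, 1624 and 1855. The peak in an intron of Cpr62Ba had signal 345 and stood at no other coding gene, 816 bp from a TSS of that gene. Its signal was 76.7 in replicate 1, 154 in replicate 3 and 108 in replicate 4, at ranks 3405, 1478 and 2361. Replicate 1 placed the peak lowest of the 3 libraries at both of these genes.

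The remaining called members had weaker peaks. The 2 peaks upstream of Cpr49Ah had signals of 215 and 149, and their summits lay 756 bp and 553 bp from its TSS. Both summits also lay within 2 kb of CG33627. In replicates 1, 3 and 4 the stronger had signals of 49.8, 62.8 and 90.5 and the weaker 27.5, 32.4 and 81.7, and both ranked highest in replicate 4, at 3117 and 3580, against 6054 to 13758 in the others. Cpr73D, the longest member, held 3 peaks with signals of 191, 164 and 134. Those of signals 191 and 134 overlapped each other and lay where Cpr73D overlaps Ogdh, which encodes a subunit of a mitochondrial dehydrogenase. An Ogdh TSS was nearest to both, at 608 bp and 406 bp. The peak of signal 134 stood in a 5′ UTR of Cpr73D or Ogdh. The peak of signal 191 matched no library summit within 100 bp, the nearest lying 103, 127 and 138 bp away in replicates 1, 3 and 4. From the summit of signal 134, the nearest lay 99, 75 and 64 bp away in the same order. Peaks with signals of 174, 172, 163, 153 and 140 were counted for Cpr76Ba, Cpr49Ac, Cpr97Ea, Cpr47Ec and Cpr97Eb. CG8501, CG13223 and CG14258 also lay within 2 kb of the peaks at Cpr49Ac, Cpr47Ec and Cpr97Eb, in that order. For the Cpr97Eb peak a CG14258 TSS was nearest, at 708 bp, against 1305 bp for that of Cpr97Eb. The signals in replicates 1, 3 and 4 were 48.8, 93.8 and 34.9 at Cpr76Ba and 26.4, 63.8 and 49.3 at Cpr47Ec. At Cpr49Ac they were 30.1, 55.9 and 51.2. At Cpr97Ea they were 48.8, 52.6 and 53.4 and at Cpr97Eb 40.4, 52.9 and 43.2, and the ranks there, 6428 to 7598 and 7534 to 8713, spread less than those at Cpr76Ba, 3325 to 10662. Among as many of the strongest peaks of each library, 7 of the 15 member peaks had a summit within 100 bp in all 3 libraries, 5 in 2 libraries, 2 in 1 library and 1 in none. In the whole IDR list 4297 peaks (56.8%) were matched in all 3.

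**Figure D2:**
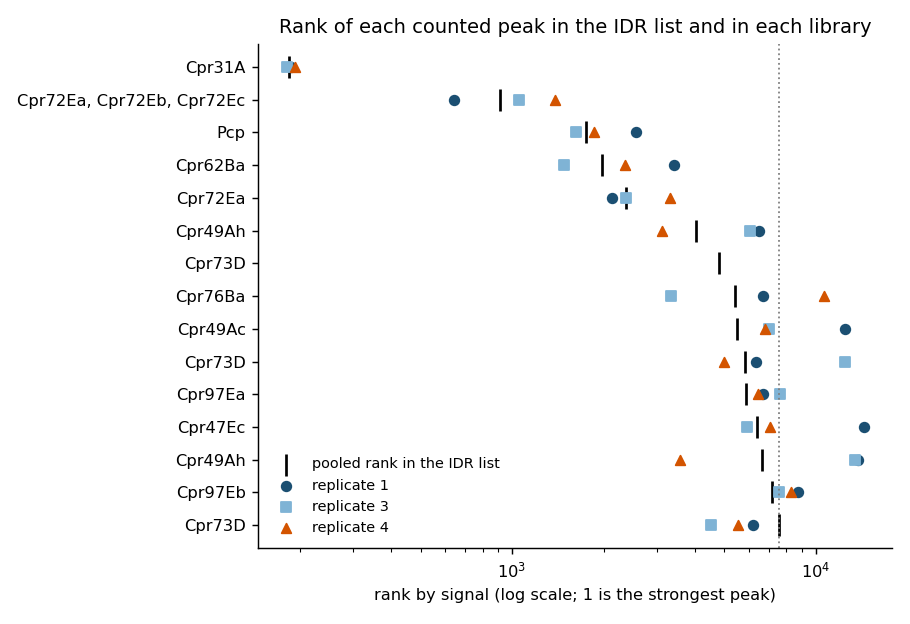
Rank by signal (log scale, 1 strongest) of the 15 IDR peaks counted for cuticle protein genes, in the IDR list (bars) and in replicates 1, 3 and 4 (symbols); the dotted line marks the length of the IDR list, 7571. The peak at Cpr31A held ranks 182 to 193 in the 3 libraries, while the weaker peaks spread more widely, and 1 peak at Cpr73D has no library symbol.

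The families differed in how often they were called. Of the 70 Cpr genes 12 (17.1%) had an IDR summit, against 34.4% of protein-coding genes, and Pcp was the only other called member. The median span of Cpr genes was 1094 bp, and 25.8% of protein-coding genes of 1 to 2 kb were called. None of the 15 Lcp, 7 Ccp84 or 25 Tweedle genes had one. The Lcp and Ccp84 genes are short, with median spans of 578 bp and 872 bp, and 17.4% of protein-coding genes under 1 kb were called. At that share, the absence of calls among 7 Ccp84 genes says little. Most Lcp genes lie in the Lcp65Ag3 to Cpr65Az array, and 12 of the 25 Tweedle genes in the TwdlM to TwdlD array. The uncalled genes of these families are thus not separate observations either. In the relaxed list the Cpr family reached 43 genes (61.4%), Ccp84 5 of 7 (71.4%), Lcp 4 of 15 (26.7%) and Tweedle 2 of 25 (8%), beside 54.4% of protein-coding genes. The Cpr and Ccp84 families were thus above the protein-coding share in the relaxed list, and the Lcp and Tweedle families below it. The 5 called Ccp84 genes shared 4 distinct relaxed peaks, so neighbouring genes are not separate observations. For contrast, counts were made for 2 families outside the rule, the chemosensory receptors and the cytoplasmic ribosomal proteins. Chemosensory receptors were called at 18 of 179 (10.1%) in the IDR list and 29.6% in the relaxed list, and ribosomal protein genes at 69 of 92 (75%) and 84.8%. By share of genes, cuticle protein genes thus lay near the receptors in the IDR list and above them in the relaxed list. The receptors were longer, with a median span of 1691 bp against 970 bp. Per 100 kb of genes and flanks they held 1.88 IDR summits, against 2.95 at cuticle protein genes, and 10.2 relaxed summits against 20.1. No test was run on these differences.

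**Figure D3:**
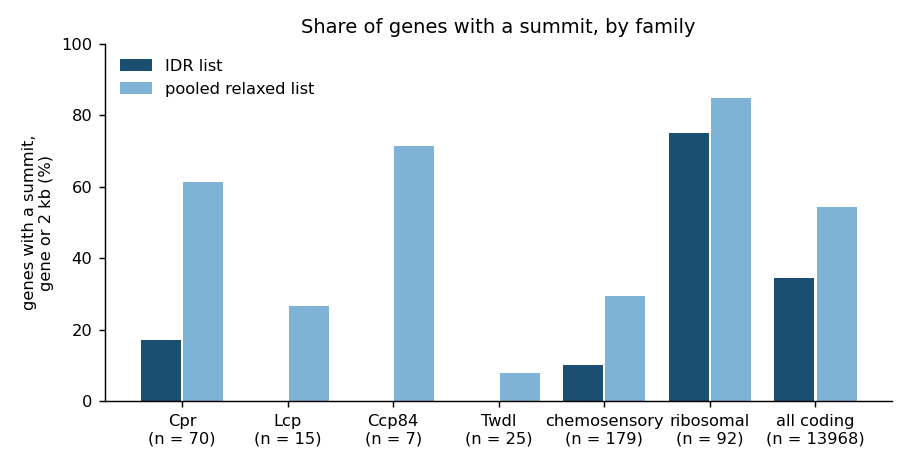
Bars give the percent of genes in each family with a summit within the gene or 2 kb, for the IDR list (dark) and the pooled relaxed list (light). IDR summits are absent from the Lcp, Ccp84 and Twdl bars, while the relaxed list reached 71.4% of Ccp84 genes and 8% of Twdl genes.

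The distance from a TSS to the nearest IDR summit also differed between families. Its median was 11578 bp over all members, against 6822 bp for protein-coding genes and 5968 bp for the neighbours that are no members. By family it was 6240 bp for Cpr, 18502 bp for Lcp, 23160 bp for Tweedle and 27910 bp for Ccp84. The Cpr median was close to that of protein-coding genes, while at short range 7.14% of Cpr genes and 22% of protein-coding genes had one at most 1 kb away. All 7 Ccp84 genes and 15 of 25 Tweedle genes lay over 20 kb from the nearest IDR summit, compared with 21.7% of protein-coding genes. Genes of a cluster share their nearest peak, so these distances are not independent.

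**Figure D4:**
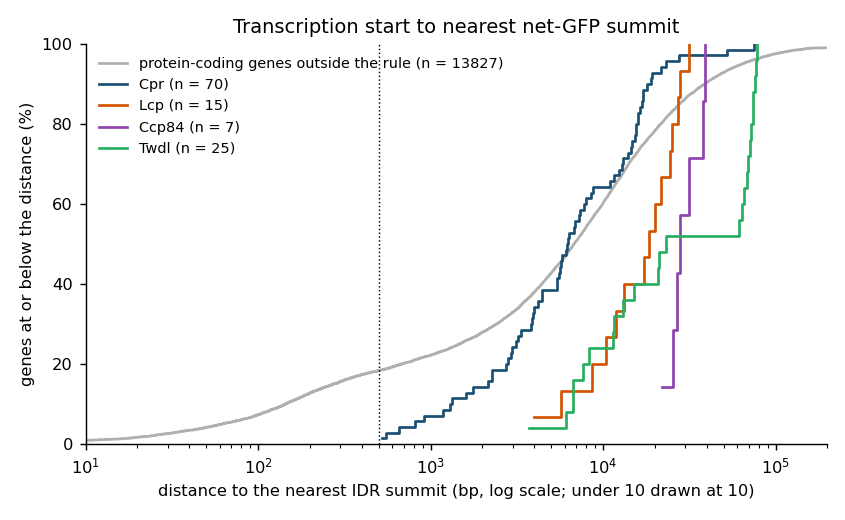
Cumulative percent of genes by distance from a TSS to the nearest IDR summit (bp, log scale) for each family and for protein-coding genes outside the rule; the dotted line marks 500 bp. No family curve starts left of 525 bp, and the Ccp84 curve starts at 21906 bp.

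Clusters and lone genes were also counted as units. An IDR summit was counted at 6 of the 17 clusters and at 3 of the 29 lone genes, but a cluster holds several genes and so more sequence. By gene, 10 of 89 members in clusters (11.2%) and 3 of 29 lone members (10.3%) were called, against 34.4% of protein-coding genes. The 5 clusters of 5 or more genes held 51 members, of which 3 (5.88%) were called. These members had a median span of 817 bp, and 17.4% of protein-coding genes under 1 kb were called. The largest, from Lcp65Ag3 to Cpr65Az, packs 17 larval and other cuticle genes into 31.2 kb on 3L and had no IDR summit within 2 kb of a member, while the relaxed list gave 5 distinct summits at 6 of its genes. An IDR peak of signal 259 did lie between its genes, 2782 bp from Cpr65Ay and so outside the 2 kb limit. Likewise an IDR peak of signal 149 lay inside the Cpr65Ea to Cpr65Ec cluster, 2141 bp from Cpr65Ec, and was not counted. The Tweedle array from TwdlM to TwdlD, 12 genes in 21.9 kb on 3R, had no summit in the IDR list, the relaxed list or any library's list, and the nearest IDR summit was 61468 bp from its edge. The Ccp84 array, 7 genes in 18.2 kb, had 4 relaxed summits, the strongest with signal 70.7 at rank 15092.

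Of the arrays on 2R, that from Cpr49Aa to Cpr49Ah, 8 genes in 38.5 kb, held 3 IDR peaks, 2 of them upstream of Cpr49Ah. The array from Cpr47Ea to Cpr47Eg, 7 genes in 26.7 kb, held 1 IDR peak, 41 bp downstream of Cpr47Ec, and the 4 genes from Lcp1 to Lcp4 had no summit in either pooled list. The small cluster of Cpr72E genes was the one cluster of 3 genes in which every gene was called.

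**Figure D5:**
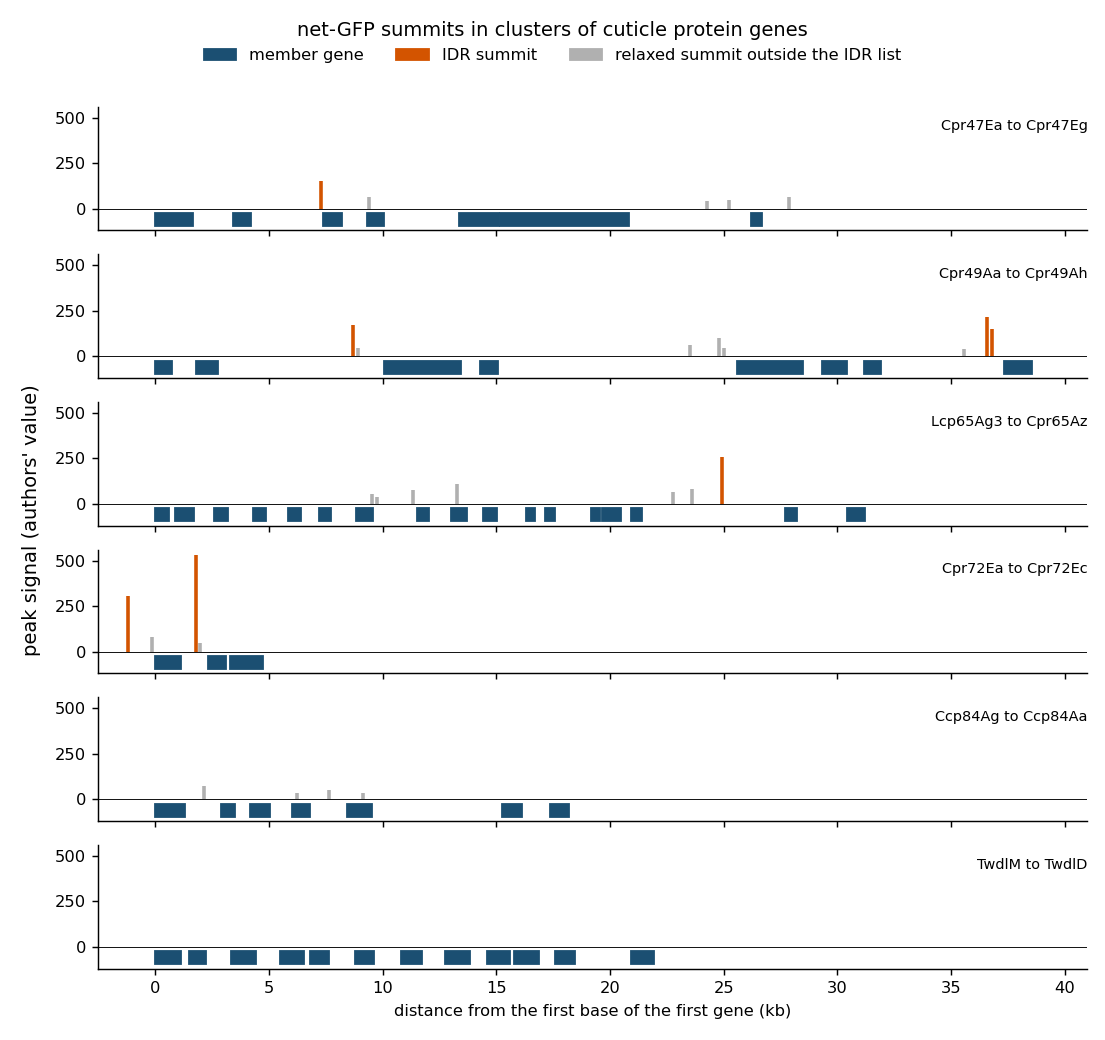
Maps of the 5 clusters of 5 or more genes and of the Cpr72E cluster, with distance from the first base of the first gene in kb; boxes are member genes, and vertical lines are summits drawn to their signal, orange for the IDR list and grey for relaxed peaks outside it. Summits over 2 kb from any member are drawn as well, such as the IDR summit of signal 259 in the Lcp65Ag3 to Cpr65Az array, and the TwdlM to TwdlD array has none.

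The best relaxed peak of the 55 members that had one held a median rank of 12283, against 4704 for the protein-coding genes that had one. Of the members outside the IDR calls, the highest relaxed signals were 128 at Cpr65Ea and Cpr65Eb, which share that peak, and 124 at Cpr57A. Weak summits did sit close to some TSSs. The relaxed list had a TSS summit, 500 bp away at most, in 19 members, of which 14 were Cpr genes, 2 were Ccp84 genes, 2 Tweedle genes and 1 an Lcp gene. The strongest of these were at Cpr50Ca (signal 111, rank 9410), Lcp65Ad (111, rank 9460) and Cpr66D (98.9, rank 10685). They were followed by Cpr97Eb (90.2), Cpr97Ea (85.4), Cpr51A (83.4), TwdlT (80.4), Cpr72Ea (78) and Cpr62Ba (70.8). Cpr66Cb, TwdlE, Cpr65Av, Cpr100A, Cpr76Bc and Cpr72Eb had signals between 46.1 and 61.2. All of these lay below the lowest signal of the IDR list, 134. This follows from their absence from the IDR list, which holds the strongest of the relaxed peaks.

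The promoters of cuticle protein genes were searched for 2 motifs, which the symbol rule did not use. In the 50 bp upstream of the TSS, on the coding strand only, TATAAA was present at 77 of 118 members (65.3%), against 10.6% of protein-coding genes. An IDR summit stood at the TSS, under the same limit of 500 bp, in 8.12% of protein-coding genes with this TATAAA and 19.4% of those without, and within the gene or 2 kb in 19.4% and 36.2%. Among members, 7 of 77 with it (9.09%) and 6 of 41 without it (14.6%) were called. CANNTG, which reads the same on both strands, occurred in the 250 bp before to 50 bp after the TSS of 81.4% of members and 77.2% of protein-coding genes. These are matches of letters in a window, and no factor's binding follows from them. Its part in the low share of peaks was not tested.

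Some cuticle gene arrays consist of near-identical copies, and reads from repeated sequence may not be placed uniquely. Words of 32 bases with more than 1 copy in the genome made up 10% or more of the gene and its 2 kb flanks at 17 members. The highest share was 65.7%, and a second copy could lie in the same gene or its flanks. Of these 17, 1 (5.88%) was called in the IDR list and 3 (17.6%) in the relaxed list. The 1 called in the IDR list was Cpr73D, at 40.2%, which held 3 of the 15 member peaks. Of the members under that share, 12 (11.9%) and 52 (51.5%) were called, beside 34.4% and 54.4% of protein-coding genes in the same lists. The relaxed share of these members was near that of protein-coding genes, and the IDR share was below it. Repeated words were counted at members only, so the protein-coding genes were neither filtered in this way nor matched for span. This split was made after seeing the data, and the part of repeated sequence in the counts was not tested.

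Other genes of cuticle formation were described from 4 lists. Cuticle proteins outside the symbol rule had an IDR summit at 6 of 19 (31.6%), with the highest signals at resilin, an elastic protein (362), and at the chitin-binding proteins Gasp (292), obst-B (247) and obst-A (201). Resilin and Gasp each had 2 IDR peaks. The stronger resilin peak lay in an intron of RalGPS, 4178 bp from the resilin TSS. The stronger Gasp peak lay in an intron of a noncoding gene, 1548 bp from the Gasp TSS. Genes of chitin synthesis, modification and turnover, with a median span of 3454 bp, were called at 15 of 26 (57.7%). The share was 34.4% over all protein-coding genes and 45% over those of 2 kb and over. The highest signals were at the chitinase gene Cht7 (651), the chitin deacetylase gene Cda5 (451), the chitinase gene Cht11 (432) and nst (328), an enzyme of chitin precursor synthesis. Cht7 and Cht11 had their strongest summits 154 bp and 204 bp from a TSS. The strongest of the 3 Cda5 peaks lay in a 5′ UTR of dbr, 1469 bp from the nearest Cda5 TSS. An IDR summit also lay 2 bp from a Cda5 TSS. Of the tanning and pigmentation genes 3 of 9 found (33.3%) were called, y with 319 from a peak in an intron of CG32816, Pu with 214 and Ddc with 140. The regulators of cuticle genes at metamorphosis were called at 13 of 13, with the strongest peaks at the ecdysone-response genes Hr4 (1538), Eip75B (963) and Eip74EF (737) and at the epidermal factor grh (544). These regulators are long genes, with a median span of 50703 bp against 970 bp for the cuticle protein genes, and a longer gene has more room for a peak. For the structural proteins outside the rule and the tanning and pigmentation genes the shares were near the 34.4% of all protein-coding genes. Their median spans were 1293 bp and 5603 bp, however. Among protein-coding genes of 1 to 2 kb and of 2 kb and over, 25.8% and 45% were called. By span, 31.6% was thus above the share of like genes and 33.3%, from 9 genes, below it. No list was tested against the members.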

How the data were processed

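Per the labels, net-GFP was precipitated from whole prepupae in 3 libraries of 1 group. The authors deposited narrowPeak lists on builds dm6 and dm3. The 5 dm3 lists were not used. Each deposited signal is the authors' value per peak, used to rank peaks within a list and not compared between lists. The authors' deposited −log10 q-value was only carried along, and the deposited summit offset gave each summit position. Which aligner and which peak caller made them is not given in the sources used here. The relaxed list of each library and of the pooled libraries holds 30000 peaks, and all 7571 IDR peaks are the strongest of the pooled list, so a place in the IDR list does not by itself show that a peak ranked alike in all libraries. Depth is unknown.

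Genes came from Ensembl release 115 and sequences from the RefSeq Release 6 genome, which is dm6. Without transposable elements and pseudogenes there were 17947 genes. A gene was called by a summit inside its span or at most 2 kb outside, or, as stated, at most 500 bp from its TSSs, and shared peaks were counted once. Summits within 100 bp were matched between lists. Coordinates are 1-based. The named genes were every called member with each of its peaks, up to 15 members with a relaxed summit at a TSS, the clusters of 5 or more genes, and up to 4 genes of each other list. The members and lists were chosen with earlier results of these data known. AANAT1 was not found in the annotation. No sequence from chromosome arm 2R is printed. The calling rules were tested on simulated data. Python 3.11.15, numpy 2.4.6, scipy 1.17.1 and matplotlib 3.10.9 were used. Other distances, lists and backgrounds were tried. Each library was also set aside in turn, for the IDR list by keeping the peaks matched in both others, without calling peaks anew. The 2 alternatives on repeated sequence and on the Tweedle genes were chosen after seeing the data.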

Additional observations from a re-analysis of the deposited data

How the results depend on the processing

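No paired analysis was possible because the 3 libraries form 1 group. The share of members called minus that of protein-coding genes, -23.4 percentage points, stayed below 0 in 17 of 17 alternatives. It was -12.4 for summits inside the gene, -21.6 within 1 kb, -20.4 within 5 kb and -18.2 at a TSS. It was -18.8 among the stronger IDR peaks (those of rank up to the middle of the list), -7.76 in the relaxed list and -18.8 for peaks matched in all 3 libraries. It was -10.8 and -12.7 among genes under 1 kb and of 1 to 2 kb, and -20.4 without the Tweedle genes. With 1 library set aside, only the IDR peaks matched in both other libraries were kept, and it was between -20.8 and -19.5. Peaks were not called anew for this, so it is a stricter filter on the same IDR list. The alternatives of any overlap, of all genes as background, of genes of 2 kb and over and of members with few repeated words moved it by less than the SD between libraries, 1.51. The 13 called members became 3, 8, 33 and 0 under those distances in the same order, 6, 55 and 8 under those lists, and 9 to 10 for peaks matched in both other libraries. The 15 distinct peaks became 5, 26 and 0 for the gene, 5 kb and the TSS, 5, 102 and 7 under those lists, and 8 to 9 for peaks matched in both other libraries. The mean library share of 11% became 47.5% over all peaks of each list and stayed at 10.6 to 11.4% without 1 library. The 55 members of the relaxed list became 17 inside the gene and 19 at a TSS. The 6 clusters with an IDR summit became 7 and 6 with gaps of 10 and 50 kb. The share of member peaks with an E-box, 46.7%, became 33.3% within 25 bp and 53.3% within 100 bp, inside its interval, but it was above the share of all IDR peaks at 25 and 50 bp and below it at 100 bp. The size of the difference in called shares therefore depends on the distance, the list and the span of the genes compared, and 99 of the 118 members span under 2 kb. Library depth, unknown here, limits which weak peaks could be found.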
